A study of Mus musculus with 30 samples.

Results

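The genes described here are 9 genes known as markers of homeostatic microglia: P2ry12, P2ry13, Tmem119, Cx3cr1, Csf1r, Siglech, Gpr34, Olfml3 and Sall1. They were chosen by name, and each has 1 row among the 16995 genes of the deposited table. The RNA came from adult female C57BL/6 mice, whose cervical hemicord deprived of its cortical input was trimmed to the intermediate laminae at levels C5/C6. The animals had received a unilateral photothrombotic stroke of the sensorimotor cortex, in which a light-activated dye clots the vessels under the skull, and were killed at 1 of 5 times after injury, 4, 7, 14, 28 or 42 d (dpi). Sham-operated animals served as controls. The labels name 30 animals, and values were available for 29 of them, 4 at 4 dpi and 5 in each other group, since 1 animal labeled 4 dpi has no column of values. The study left an animal of that group out as an outlier in its own test of differential expression, so the spread and the calls at 4 dpi rest on a group that was trimmed on an outcome. The comparison asks whether the genes that mark resting microglia changed in the denervated spinal gray matter, far from the lesion, while it was reinnervated.

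Microglia are the resident macrophages of the CNS. In the undisturbed cord they are ramified, and they keep a set of receptors and regulators that sense ATP breakdown products, chemokines and growth factors. CSF1R, bound by the cytokines CSF1 and IL-34, is needed for their survival, CX3CR1 binds the neuronal chemokine CX3CL1, and P2RY12 and P2RY13 are purinergic receptors. After an injury many microglia lower some of these genes while they raise phagocytic and lysosomal ones, so the set is widely used to tell resting from reactive states.

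Positions are those of the mm10 build. P2ry12 (ENSMUSG00000036353) lies on the minus strand of chromosome 3 from 59216272 to 59262871, next to P2ry13 (59207892 to 59210882, the same strand). Both lie inside Med12l, which is read from the opposite strand. Med12l shares 9 exon bases with P2ry12 and 0 with P2ry13. Tmem119 is on chromosome 5 (113793729 to 113800516), Cx3cr1 on chromosome 9 (119901616 to 120069879), Csf1r on chromosome 18 (61105572 to 61132149), Siglech on chromosome 7 (55768178 to 55778925), Gpr34 on chromosome X (13632089 to 13640858, inside Cask on the opposite strand, with 0 shared exon bases), Olfml3 on chromosome 3 (103722222 to 103738001) and Sall1 on chromosome 8 (89027235 to 89044162). Csf1r shares 873 exon bases with Hmgxb3 on the opposite strand, and Cx3cr1 shares 78 with the antisense gene Gm33858, which has no row in the table. The library kit does not mark strand, so both values could hold some reads of these genes. RNA was ribosome-depleted, so reads of unspliced Med12l could also fall in P2ry12 and P2ry13, and those of Cask in Gpr34. Hmgxb3 differed from sham by 0.00 at 4 dpi on the log2 scale (standard error 0.09) and by 0.04 at 28 dpi. Med12l differed by 0.02 at 4 dpi and 0.25 at 28 dpi (limma adjusted p = 0.0338). For Cask the differences were -0.10 and 0.14 (limma adjusted p = 0.203 at 28 dpi). The part of such reads in the values was not tested.

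The value of a gene in an animal is the authors' normalized CPM (read counts scaled for library size), rounded to 0.1. Read totals were not used here, so the depth of a library is unknown, and only the spread between animals shows how precise a value is. Sums over all genes ran from 714597 to 2256910 per animal, whereas medians over genes ran from 10.2 to 11.2. Residual ribosomal RNA, read from Rn18s-rs5, ran from 30321 to 52929 in sham. At 4 dpi 1 of 4 animals was above that range and 3 were below it (lowest 18295). It exceeded the range in 3 of 5 at 7 dpi, 3 of 5 at 14 dpi (highest 817780), 4 of 5 at 28 dpi (44755 to 779160) and 5 of 5 at 42 dpi (78737 to 457302). The tissue is a mixture of cells, so more microglia and more RNA per microglial cell cannot be told apart. The animal names carry a prefix (A3 in A3-1) whose meaning the labels do not give. Each group holds 2 of the 11 prefixes, and only A3 occurs in 2 groups, 28 and 42 dpi, so prefix and group can hardly be told apart. The p-values measure only the spread between these animals.

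The 250 bases before the transcription start are shown for 3 of the genes, Olfml3 because it was one of the 2 genes called at 4 dpi, Sall1 because it stood apart at 28 dpi, and P2ry13 because it held the only motif match. They are RefSeq promoters of build GRCm38.p6, written 5′ to 3′ on the gene's strand (minus for all 3), at chr3:103738002-103738251 for Olfml3, chr8:89044163-89044412 for Sall1 and chr3:59210883-59211132 for P2ry13. Capitals mark GAGGAA, the core of sites bound by PU.1, the factor that specifies myeloid cells.
Olfml3: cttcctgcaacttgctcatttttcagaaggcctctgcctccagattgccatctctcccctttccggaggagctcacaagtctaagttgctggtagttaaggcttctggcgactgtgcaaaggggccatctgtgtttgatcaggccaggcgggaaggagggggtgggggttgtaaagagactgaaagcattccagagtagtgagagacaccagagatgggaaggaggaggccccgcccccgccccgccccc
Sall1: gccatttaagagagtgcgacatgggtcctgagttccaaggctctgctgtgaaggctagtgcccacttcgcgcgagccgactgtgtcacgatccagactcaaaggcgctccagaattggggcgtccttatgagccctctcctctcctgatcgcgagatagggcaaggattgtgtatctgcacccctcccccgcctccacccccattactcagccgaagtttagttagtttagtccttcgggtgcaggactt
P2ry13: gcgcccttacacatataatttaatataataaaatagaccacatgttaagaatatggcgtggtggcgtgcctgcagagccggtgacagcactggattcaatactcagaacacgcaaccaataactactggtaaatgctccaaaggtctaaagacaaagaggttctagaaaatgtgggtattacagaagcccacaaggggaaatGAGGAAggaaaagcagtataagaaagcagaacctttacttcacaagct
Searched on both strands, GAGGAA occurred in 1 of 8 windows (6 genes with an entry, Sall1 with 3 starts), against 23.3% of 32851 promoters of this length. TGANTCA, the AP-1 site, occurred in 0 of the 8 windows, against 6.75% of all promoters. These counts say only which letters the windows hold.

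In sham animals the level of the genes per kb of exon (normalized CPM divided by exon length) was highest for Csf1r, at 5.32 ± 0.53 (SD, n = 5). P2ry12 followed at 3.63 ± 0.37 and Cx3cr1 at 3.11 ± 0.17. Sall1 (2.33 ± 0.40) and Tmem119 (2.32 ± 0.28) were next, and their ranges overlapped. Gpr34 (1.74 ± 0.18) and P2ry13 (1.5 ± 0.06) overlapped as well, as did the lowest pair, Siglech (1.06 ± 0.11) and Olfml3 (1.00 ± 0.10). Other neighbors in this order did not overlap over the 5 sham animals. All 9 genes had values above 0 in every animal, so the defining markers of microglia were present in each sample.

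**Figure D1:**
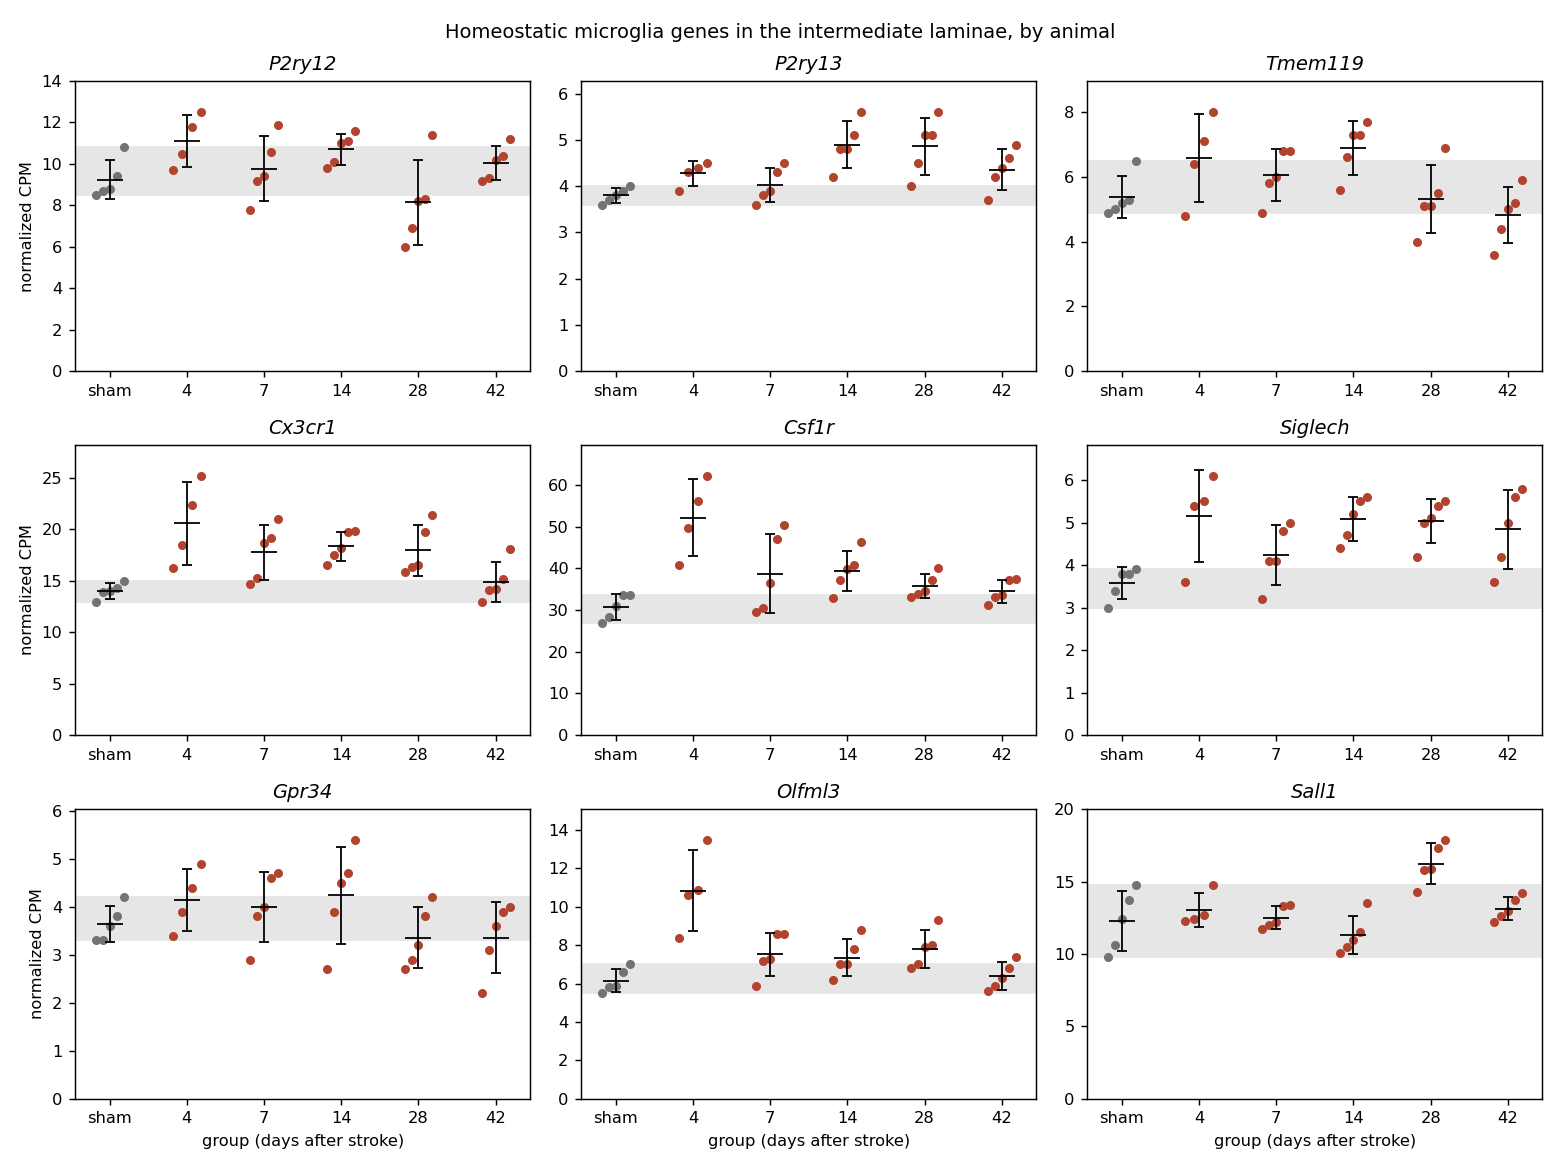
Normalized CPM of each gene (vertical axis, from 0, 1 panel per gene) in sham animals (gray points) and in the 5 stroke groups, labeled by days after stroke (red points). Each point is 1 animal, black bars show mean ± SD, and the gray band is the sham range. Csf1r, Cx3cr1 and Olfml3 lie above the sham range in all 4 animals at 4 dpi, and Sall1 is highest at 28 dpi (14.3 to 17.9), a direction against sham that turned when every animal was scaled to the same sum.

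Csf1r, the growth factor receptor, rose most clearly at the first time point. Its normalized CPM was 26.8, 28.4, 31.0, 33.6 and 33.7 in the sham animals and 40.7, 49.6, 56.1 and 62.2 at 4 dpi. The groups did not overlap. The log2 fold change was 0.74 (standard error 0.13, limma adjusted p = 0.00915). At 7 dpi the animals were spread from 29.5 to 50.3, with 3 of 5 above the sham range. At 14 dpi they lay between 33.0 and 46.3, with 4 of 5 above it. The 28 dpi (33.1 to 40, 4 of 5 above) and 42 dpi groups (31.2 to 37.5, 2 of 5 above) were closer to the sham animals than the 4 dpi group. No later comparison with sham passed an adjusted p of 0.05. Its ligand genes did not pass the test at 4 dpi, with log2 fold changes of 0.07 for Csf1 (standard error 0.11) and 0.08 for Il34 (standard error 0.17).

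Olfml3, which encodes a secreted olfactomedin-domain protein, had the largest fold change of the 9 genes at 4 dpi. Its normalized CPM was 5.5, 5.8, 5.9, 6.6 and 7.0 in sham and 8.4, 10.6, 10.9 and 13.5 at 4 dpi. All stroke animals were above all sham animals. The log2 fold change was 0.76 (standard error 0.13, limma adjusted p = 0.00915). The groups overlapped with sham from 7 dpi on, when it was 5.9 to 8.6, and the later ranges were 6.2 to 8.8 (14 dpi), 6.8 to 9.3 (28 dpi) and 5.6 to 7.4 (42 dpi).

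Csf1r and Olfml3 were thus 2 of 9 genes called at 4 dpi (adjusted p under 0.05 and more than 1.5-fold), against 0.0941% of all genes (16 of 16995). The number rested on single animals. Without the 4 dpi animal A10-4, which had the highest value of both genes, 0 were called and both had an adjusted p of 0.0986 (log2 fold changes 0.65 and 0.65). Without A9-4 only Olfml3 was called, and without A9-2, the lowest animal for both, Cx3cr1 was called as well (log2 fold change 0.62, adjusted p = 0.0177). A fit of only the 2 groups called Csf1r alone, and with every animal scaled to the same sum 0 were called, at larger standard errors (0.28 for Csf1r) and log2 fold changes of 0.76 and 0.78.

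Cx3cr1, the fractalkine receptor, was higher than in every sham animal at 3 time points without being called. Its normalized CPM was 12.9, 13.9, 14.0, 14.3 and 15.0 in sham and 16.2, 18.5, 22.4 and 25.2 at 4 dpi (log2 fold change 0.52, standard error 0.12, limma adjusted p = 0.0638). It was 16.5 to 19.8 at 14 dpi and 15.9 to 21.4 at 28 dpi, again with no overlap. At 7 dpi 4 of 5 animals were above the sham range, and at 42 dpi 2 of 5. Cx3cl1, the gene of its ligand, had a log2 fold change of -0.04 at 4 dpi (standard error 0.08).

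Of the purinergic receptors, P2ry12 and P2ry13 differed in course although the genes are neighbors. P2ry12 was 8.5, 8.7, 8.8, 9.4 and 10.8 in sham, 9.7, 10.5, 11.8 and 12.5 at 4 dpi, and 6.0, 6.9, 8.2, 8.3 and 11.4 at 28 dpi. At 28 dpi 4 animals were below the sham range and 1 was above it. The log2 fold change at 28 dpi was -0.20 (standard error 0.12, limma adjusted p = 0.230), and without the high animal, A3-1, it was -0.32 (adjusted p = 0.0297). P2ry13 was 3.6 to 4.0 in sham and 3.9 to 4.5 at 4 dpi. It was 4.2, 4.8, 4.8, 5.1 and 5.6 at 14 dpi, and the 28 dpi animals had 4.0, 4.5, 5.1, 5.1 and 5.6. Its 14 dpi animals were all above sham, and at 28 dpi 4 of 5 were.

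Siglech, a member of the family of sialic acid-binding lectins, was 3.0, 3.4, 3.8, 3.8 and 3.9 in sham and 3.6, 5.4, 5.5 and 6.1 at 4 dpi. Animal A9-2, the lowest of its group for Csf1r, Cx3cr1 and Olfml3 too, was the only one inside the sham range. At 14 dpi (4.4 to 5.6) and 28 dpi (4.2 to 5.5) all animals were above sham. Siglech also had the largest log2 fold change of the 9 genes at 42 dpi, 0.37 (standard error 0.13, limma adjusted p = 0.179). The sham range was exceeded by 4 of 5 animals.

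Tmem119, a membrane protein of unknown function in these cells, and Gpr34, a receptor for lysophosphatidylserine, overlapped with sham at every time point. Tmem119 was 4.9, 5.0, 5.2, 5.3 and 6.5 in sham, 4.8 to 8.0 at 4 dpi, 5.6 to 7.7 at 14 dpi with 4 of 5 above the sham range, and 3.6 to 5.9 at 42 dpi with 2 of 5 below it. Gpr34 was 3.3 to 4.2 in sham and 2.7 to 4.2 at 28 dpi, where 3 of 5 animals were below the sham range. Neither gene passed an adjusted p of 0.05 against sham at any time point.

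Sall1, the transcription factor that maintains microglial identity, followed another course. It was 9.8, 10.6, 12.4, 13.7 and 14.8 in sham, 12.3 to 14.8 at 4 dpi and 11.7 to 13.4 at 7 dpi, all within the sham range. At 14 dpi it was 10.1, 10.5, 11, 11.5 and 13.5, and at 28 dpi 14.3, 15.8, 15.9, 17.3 and 17.9. The 28 dpi group was above every 14 dpi animal, and 4 of its 5 animals were above the sham range. At 42 dpi it was back at 12.2 to 14.2. Sall1 is also expressed in other neural cells of the embryo and adult, and which cells gave this signal was not tested.

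**Figure D2:**
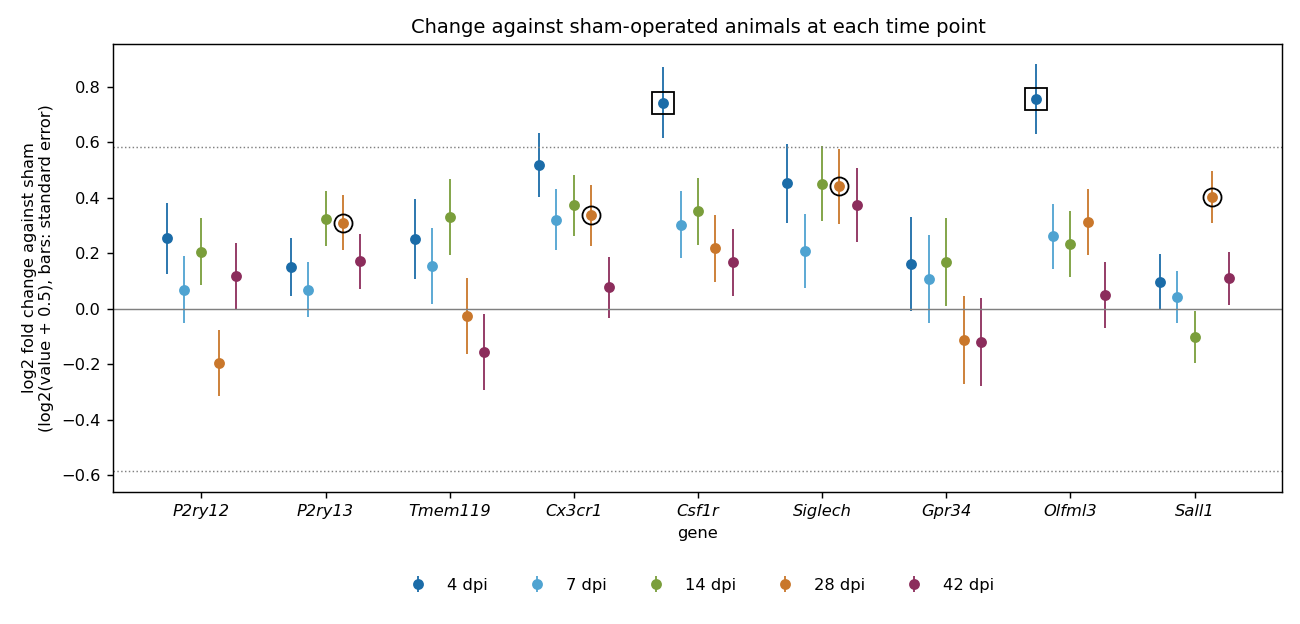
Log2 fold change against sham (vertical axis, on log2(value + 0.5)) of each gene (horizontal axis) at 5 time points (colors), with standard errors as bars. Squares mark the 2 called values (Csf1r and Olfml3 at 4 dpi), circles mark an adjusted p under 0.05 with a smaller fold (4 genes at 28 dpi), and dotted lines mark the 1.5-fold limit. Points at 14, 28 and 42 dpi are relative to the authors' normalization and mostly fell below 0 when every animal was scaled to the same sum.

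Against sham, the log2 fold change was above 0 for 9 of 9 genes at both 4 and 7 dpi, against 51.9% and 49.8% of all genes. The later groups had 8 (14 dpi, 47.8% of all genes), 6 (28 dpi, 49.3%) and 7 (42 dpi, 48.4%) such genes. With every animal scaled to the same sum, 22 of these 45 values changed sign, all but that of Sall1 at 7 dpi at 14, 28 and 42 dpi, where the median of all genes was -0.48, -0.73 and -0.52 on this scaling. The shift is nearly the same for every gene of an animal, so values relative to that median stay close to those on the authors' normalization by construction. The median over the 9 genes was 0.25, 0.16, 0.32, 0.31 and 0.11 in the order of the time points, against 0.01, 0.00, -0.01, 0.00 and -0.01 over all genes. After 4 dpi no gene of the set was called, against shares of all genes of 0.0294% (7 dpi), 0.00588% (14 dpi), 4.64% (28 dpi) and 0.0235% (42 dpi). At an unadjusted limma p under 0.05 there were 4, 3, 5, 5 and 1 of the 9 genes at the 5 time points, against 5.14%, 5.84%, 11.6%, 38.5% and 14.8% of all genes. All stroke animals were above all sham animals for 3 genes at 4 dpi, against 1.09% of all genes. The counts for the later groups were 0 (7 dpi, 0.388% of all genes), 3 (14 dpi, 1.11%), 2 (28 dpi, 6.15%) and 0 (42 dpi, 2.21%). The 5 comparisons share the sham animals.

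At 28 dpi, 4 of 9 genes had an adjusted p under 0.05 with a change smaller than 1.5-fold, against 24.9% of all genes. These were Sall1 (log2 fold change 0.40, standard error 0.09, limma adjusted p = 0.00416), Siglech (0.44, 0.13, adjusted p = 0.0181), P2ry13 (0.31, 0.10, adjusted p = 0.0230) and Cx3cr1 (0.34, 0.11, adjusted p = 0.0252). All 4 were higher on the authors' normalization and lower with every animal scaled to the same sum, where they stood 0.37, 0.46, 0.33 and 0.30 above the shifted median of all genes. These adjusted p-values moved with ribosomal RNA. With Rn18s-rs5 as a covariate the log2 fold changes were 0.41, 0.31, 0.24 and 0.25, and the adjusted p-values 0.0655, 0.256, 0.253 and 0.279. Leaving out 1 animal took the adjusted p of Siglech, P2ry13 or Cx3cr1 above 0.05 in 2, 4 and 3 cases (highest 0.0769, Cx3cr1 without A3-3), and in no case that of Sall1. The log2 fold changes in these cases were 0.39 and 0.41 for Siglech, 0.26 to 0.29 for P2ry13 and 0.27 to 0.35 for Cx3cr1. Olfml3 (0.31, adjusted p = 0.0508) passed 0.05 without A12-2 (0.36, adjusted p = 0.0420) or A4-4 (0.36, adjusted p = 0.0443).

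The change from one time point to the next was smaller than the limits for all 9 genes. None was called from 4 to 7 dpi, from 7 to 14 dpi, from 14 to 28 dpi or from 28 to 42 dpi, against 0%, 0%, 11.8% and 0.224% of all genes, and at an unadjusted limma p under 0.05 there were 2, 1, 3 and 4 of the 9, against 2.91%, 5.94%, 50.7% and 21.1% of all genes. From 4 to 7 dpi all 9 genes had log2 fold changes below 0, led by Olfml3 (-0.49, standard error 0.13) and Csf1r (-0.44, standard error 0.13), with adjusted p-values of 0.797 and 0.947. From 14 to 28 dpi 3 genes had an adjusted p under 0.05, against 43.0% of all genes. Sall1 was higher by 0.50 (standard error 0.09, limma adjusted p = 0.000143), and P2ry12 was lower by a log2 fold change of -0.40 (0.12, adjusted p = 0.00792) and Tmem119 by -0.36 (0.14, adjusted p = 0.0352). The result for Tmem119 was lost without any 1 of 6 animals (log2 fold change -0.27 and adjusted p = 0.128 without A3-3, and -0.35 to -0.32 with adjusted p of 0.0561 to 0.0849 for the others) and with ribosomal RNA as a covariate (adjusted p = 0.0657), and those of Sall1 and P2ry12 were not. With every animal scaled to the same sum, Sall1 stood at -0.60 against sham at 14 dpi and -0.36 at 28 dpi. P2ry12 stood at -0.29 and -0.93 and Tmem119 at -0.14 and -0.74. The median of all genes was -0.48 and -0.73 there. On this scaling the rise of Sall1 was thus smaller and both falls were larger.

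**Figure D3:**
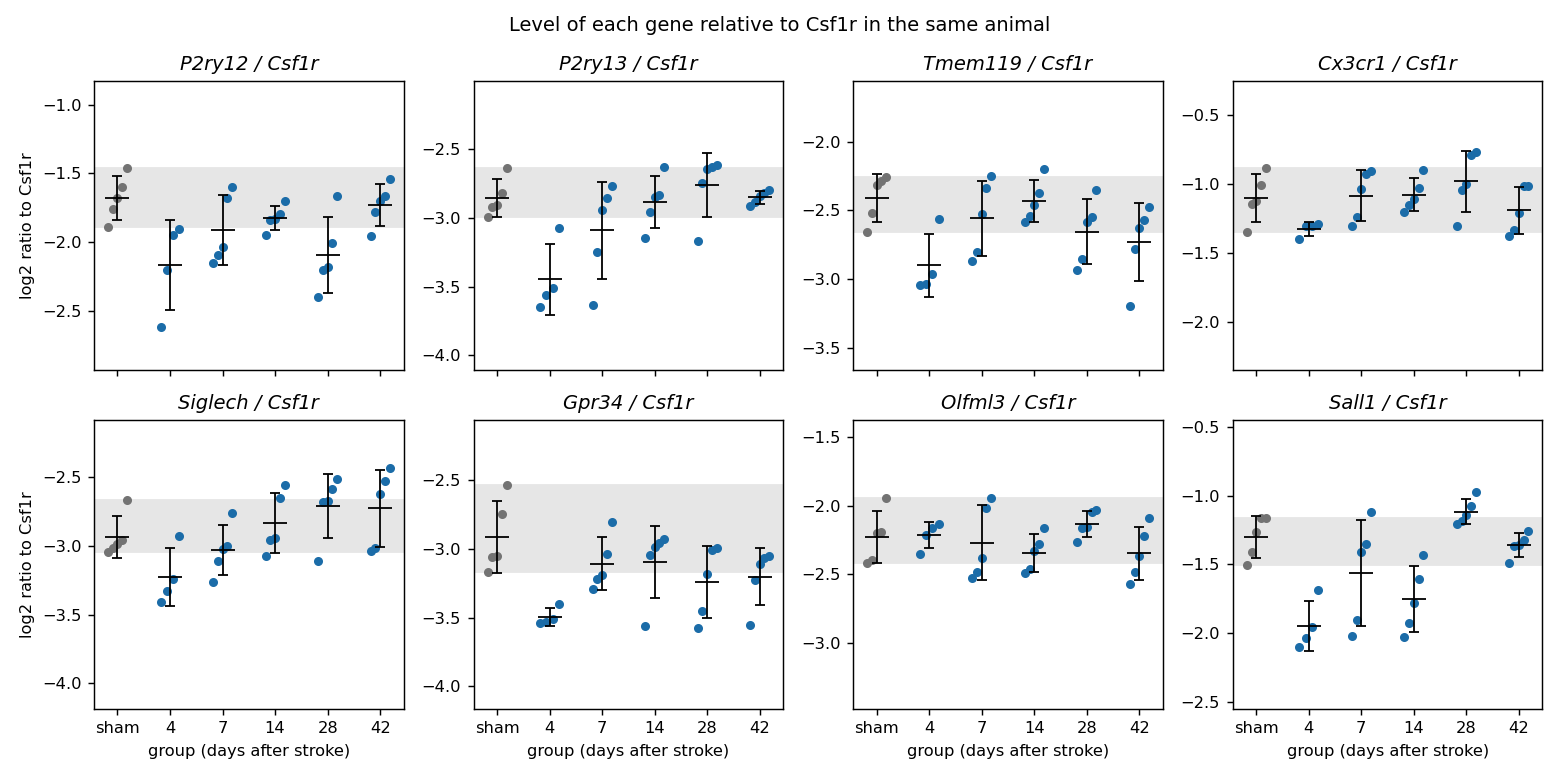
Log2 ratio of each other gene to Csf1r in the same animal (vertical axis, 1 panel per gene, all spanning the same range) in sham animals (gray) and in the 5 stroke groups (blue). Points are animals, black bars show mean ± SD, and the gray band is the sham range. At 4 dpi P2ry12, P2ry13, Gpr34 and Sall1 lie below the sham range in all 4 animals, while Olfml3 stays within it.

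A ratio to Csf1r in the same animal hardly depends on the scale of that animal, apart from the 0.5 added to each value before the log. At 4 dpi the log2 ratio was lower than in sham by a mean of -0.64 for Sall1, -0.59 for P2ry13, -0.58 for Gpr34 and -0.49 for P2ry12, with all 4 animals below the sham range for each. Among all genes 66.2% lay below in this way, since Csf1r itself was high. Each gave p = 0.0159 in a two-sided exact permutation test, the smallest that 4 against 5 animals allow, and 0.127 after Benjamini-Hochberg adjustment over the 40 ratios compared. Tmem119 (-0.49) and Siglech (-0.29) each had 3 of 4 animals below the sham range, and Cx3cr1 (-0.22) had 1 of 4. Olfml3 kept pace with Csf1r, with a difference of 0.01. No ratio had an adjusted p under 0.05 at any time point.

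Ratios to Cx3cr1 were computed as an alternative. Cx3cr1 was itself above every sham animal at 4, 14 and 28 dpi, so many genes lay below sham on this ratio. At 28 dpi 3 of 8 ratios had all 5 animals below the sham range, against 26.1% of all genes, with mean differences of -0.53 for P2ry12, -0.45 for Gpr34 and -0.36 for Tmem119. P2ry12 at 14 dpi (-0.17, 37.3% of all genes) and Gpr34 at 4 dpi (-0.36, 38.4%) also had all animals below. Olfml3 at 4 dpi had all 4 animals above the sham range (0.24, against 0.0942% of all genes). The two-sided exact permutation p was the smallest that the groups allow for each of these 6 ratios, 0.0159 at 4 dpi and 0.00794 later. After adjustment over 40 ratios the values were 0.0907 and 0.0794.

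Within groups the 9 genes varied together only in part. Over the 29 animals, after the mean of each group was subtracted, the correlation of 2 genes (Pearson's r of log2 values) ranged from -0.19 for P2ry13 and Olfml3 to 0.67 for Cx3cr1 and Gpr34, with a median of 0.25. Csf1r followed the mean of the other 8 genes most closely (0.77) and Sall1 least (0.16). These correlations share library and normalization in each animal and are given as a description.

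Of the 15486 other genes with a mean value of at least 1, those that followed the mean of the set most closely within groups included Nckap1l (r = 0.83), a hematopoietic regulator of actin, Lgi4 (0.81), Mpeg1 (0.80), which encodes a pore-forming protein of macrophages, Cldn11 (0.79), Laptm5 (0.78), Slc44a1 (0.76), Cnp (0.75), Epb41l2 (0.74) and the lysosomal protease gene Ctsz (0.74). Cldn11 and Cnp encode proteins of myelin. Across all 29 animals, with group differences kept, r fell to 0.35 for Cldn11 and 0.38 for Cnp but was 0.86 for Laptm5 and 0.83 for Mpeg1.

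**Figure D4:**
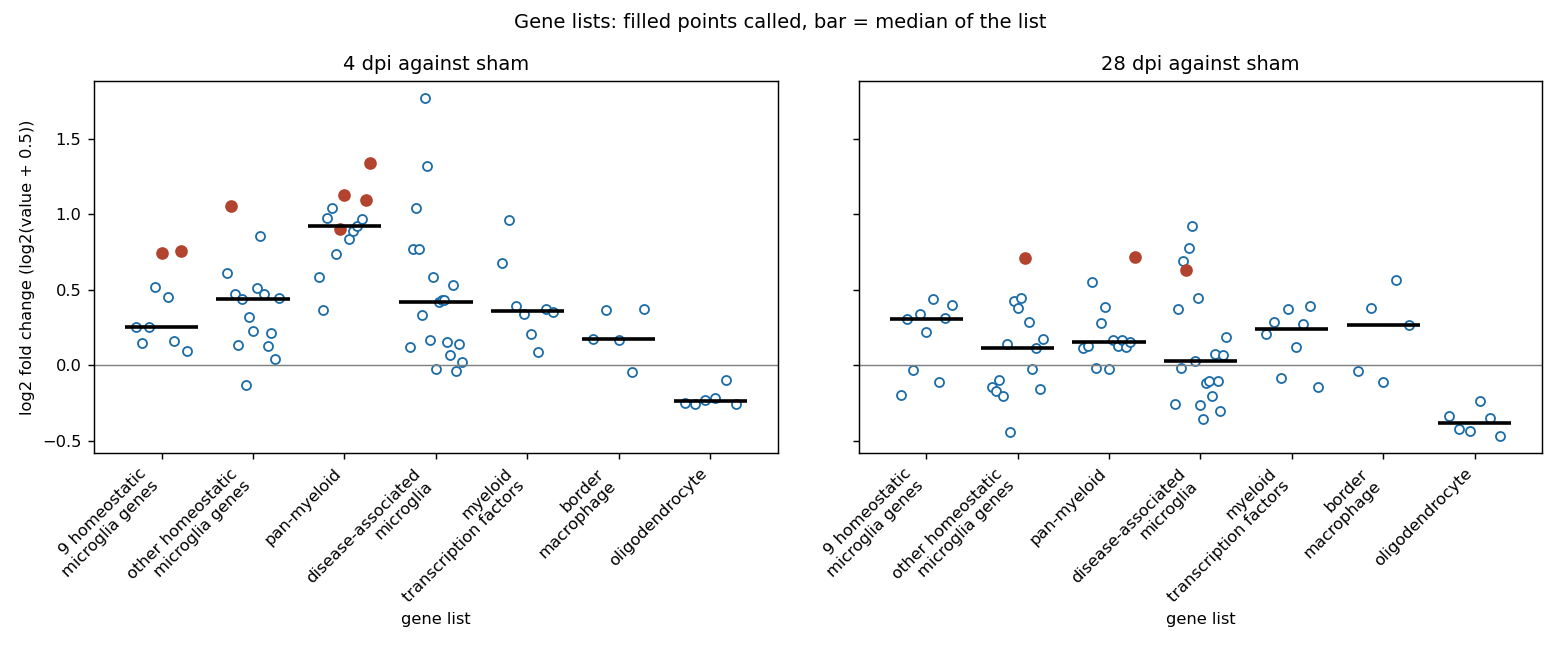
Log2 fold change against sham (vertical axis) of the genes of 7 lists (horizontal axis) at 4 dpi (left) and 28 dpi (right). Each circle is a gene, filled red where called, and the bar is the median of the list. The pan-myeloid genes have a median of 0.92 at 4 dpi and the 9 homeostatic genes 0.25. With every animal scaled to the same sum, 0 of the 9 homeostatic and 0 of the 13 pan-myeloid genes were above 0 at 28 dpi, where the median of all genes was -0.73.

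The genes listed here as pan-myeloid, among them C1qa, C1qb and C1qc, had a higher median at 4 dpi than the 9 homeostatic genes (0.92 against 0.25). Not every gene of that list is expressed by all myeloid cells, and the difference was not tested. Of 13 pan-myeloid genes, all were above 0 (51.9% of all genes were) and 4 were called, against 0.0941% of all genes: Mpeg1 (log2 fold change 1.34, limma adjusted p = 0.00915), Ly86 (1.13, 0.00957), C1qc (1.09, 0.0478), a complement subunit, and Laptm5 (0.91, 0.0355). Their summed normalized CPM was 72.0 to 85.7 in sham and 107.6 to 211.1 at 4 dpi, whereas the sum of the 9 homeostatic genes went from 84.0 to 99.1 in sham to between 104.3 and 147.3. Of 15 other homeostatic microglia genes in the table, Fcrls was called (1.05, adjusted p = 0.0223), and the median was 0.44. Of 19 genes of the disease-associated microglia state, 0 were called at 4 dpi. Clec7a was the highest at 1.77 (standard error 0.42, adjusted p = 0.104). Of 8 myeloid transcription factors 0 were called, led by Irf8 at 0.96 (adjusted p = 0.0540), and of 14 ligands and partners 0 were called, led by the signaling adaptor Tyrobp at 1.04 (adjusted p = 0.35).

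At 28 dpi 1 of the 15 other homeostatic, 1 of the 13 pan-myeloid and 1 of the 19 disease-associated genes was called, against 4.64% of all genes. These were P2ry6 (log2 fold change 0.71, limma adjusted p = 0.0202), a UDP receptor at a level of 1.04, Mpeg1 (0.72, adjusted p = 0.0194) and the lipase gene Lpl (0.63, adjusted p = 0.00210). With every animal scaled to the same sum Mpeg1 and Lpl turned to -0.03 and -0.14, both above the median of all genes of -0.73, and P2ry6 was at 0.27. From 14 to 28 dpi the disease-associated genes Apoe (-0.64), Spp1 (-0.62), Cd9 (-0.65) and B2m (-0.71) and the pan-myeloid genes Ly86 (-0.67) and Ctss (-0.64) were called lower (limma adjusted p between 0.000217 and 0.0152), 4 of 19 and 2 of 13 genes against 4.22% of all genes called lower. Some others went the other way, such as Lpl (0.08 against sham at 14 dpi and 0.63 at 28 dpi) and Ptprc (0.33 and 0.56). With every animal scaled to the same sum, 3 of the 19 and 0 of the 13 genes were above 0 in this step, where the median of all genes was -0.22. Which cells gave these values was not tested. The border macrophage gene Ms4a7 (0.83), the T cell gene Cd8a (0.61) and the precursor gene Cspg4 (0.62) were called higher (limma adjusted p between 0.000227 and 0.0453), 1 of 5, 1 of 2 and 1 of 2 genes against 7.56% of all genes. The sign of these 9 differences between 14 and 28 dpi was the same with every animal scaled to the same sum.

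Markers of other cells were measured beside these results. Of 10 border macrophage markers 5 were in the table, with summed normalized CPM of 12.9 to 17.8 in sham, 16.1 to 23.9 at 4 dpi and 15.5 to 22.2 at 28 dpi, and 0 called against sham at any time point. Ms4a7 alone of them had an adjusted p under 0.05 at 28 dpi (log2 fold change 0.56, limma adjusted p = 0.0283), against 24.9% of all genes. With every animal scaled to the same sum 0 of the 5 were above 0 at 28 dpi. Of 8 markers of blood monocytes and neutrophils 3 were in the table, and their sums were between 1.0 and 2.9 in every animal, with Ccr2 at a log2 fold change of -0.10 at 4 dpi. The 2 T cell markers in the table summed to between 1.2 and 4.1. Of 4 proliferation genes Mki67 was called at 4 dpi (1.29, limma adjusted p = 0.0355), against 0.0941% of all genes. The list summed to 5.1 to 6.8 in sham and 9.0 to 14.7 at 4 dpi. Of 6 astrocyte genes Gfap was called at 4 dpi (1.18, adjusted p = 0.0480), against 0.0941% of all genes. Aldh1l1, Aqp4 and Gja1 were at 0.19, 0.15 and 0.09, and Slc1a3 and S100b at -0.14 and -0.13. The 6 oligodendrocyte genes were all below 0 at 28 dpi, 4 of them with an adjusted p under 0.05 against 24.9% of all genes, led by Mobp (-0.47, adjusted p = 0.00473). At the same limit there were 2 of 6 astrocyte genes (Aqp4 -0.26, adjusted p = 0.0116, and Aldh1l1 -0.20, adjusted p = 0.0377), 2 of 6 neuron genes (Snap25 -0.30, adjusted p = 0.0160, and Slc6a5 0.30, adjusted p = 0.0339) and 2 of 4 endothelial genes (Cdh5 0.54, adjusted p = 0.0221, and Flt1 0.36, adjusted p = 0.0289), and 0 of 2 precursor genes. With every animal scaled to the same sum Slc6a5, Cdh5 and Flt1 turned to -0.49, -0.18 and -0.42. None of these neuron, endothelial and precursor genes was called against sham at 4 or 28 dpi. The part of these cells in the values of the 9 genes was not tested.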

How the data were processed

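Scores in the deposited table are CPM normalized by the authors with edgeR 3.14.0 (R 3.4.1, per the labels) from reads quantified on the mm10 transcriptome with SALMON and summarized per gene with Tximport, rounded to 0.1. RNA was ribosome-depleted and sequenced without strand information. The authors' own fold changes and p-values in the table were not used. Groups follow the sample labels, and the paper identifies Ctrl as sham-operated. Values were analyzed as log2(value + 0.5), which understates changes of low genes, in 1 limma fit (3.58.1, trend) with 6 group means over 29 animals, with Benjamini-Hochberg adjustment over 16995 genes. Genes were called at more than 1.5-fold (0.585 on the log2 scale) with an adjusted p under 0.05. The fit was tested on simulated data. Ratios were compared with exact two-sided permutation tests (scipy 1.17.1). Exons and overlaps came from GENCODE, and promoters from RefSeq. Tests that need counts were not applied. The 9 genes and all lists were chosen with earlier results of these data known. From the other lists, every called gene and the largest changes at 4 and 28 dpi were named, together with the 10 genes most like the set and Rn18s-rs5. 1 gene that this rule names is not reported here. Cnp, Cldn11 and the ligand genes were given further values after these were seen. The alternatives tried are given in the closing section.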

Additional observations from a re-analysis of the deposited data

Results flagged for a closer look

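Each of the 9 genes was examined in each of the 6 groups for 1 animal far from the others (Dixon's test at 95%), which chance alone flags in about 1 of 20 groups. Of the 54 groups, 2 had such an animal. The sham animal A12-2 had a Tmem119 value of 6.5, with the next at 5.3 (gap 0.75 of the range). The 4 dpi animal A10-4 had a Sall1 value of 14.8, with the next at 12.7 (gap 0.84 of the range).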

How the results depend on the processing

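At 4 dpi the number of called genes was 2, 1 when the other groups were left out of the fit, 0 with every animal scaled to the same sum, and between 0 and 3 when 1 animal was left out. At 28 dpi it was 0, and it was 3 with the same sum (P2ry12, Tmem119 and Gpr34, all lower, where the median of all genes was -0.73) and 4 without the fold limit. Other pseudocounts (1 and 0.1), a minimum mean value of 1, quantile normalization, median centring, ribosomal RNA as a covariate, no trend, the prefix of the animal names as a random block and a correction for exon length (chosen after the data were seen) changed no number of called genes, nor did leaving out 1 animal at the other time points or between them. No ratio passed in any setting, but groups of this size could hardly pass after adjustment over 40 ratios, so this says nothing about stability. Of the 10 genes most like the set, 6 were shared with Spearman's rho. No paired analysis was possible because no animal name occurs in more than 1 group and only 1 prefix does (A3, at 28 and 42 dpi).

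With the same sum, log2 fold changes against sham that changed sign were, at 14 dpi, P2ry12 -0.29, P2ry13 -0.14, Tmem119 -0.14, Cx3cr1 -0.13, Csf1r -0.16, Siglech -0.0096, Gpr34 -0.28 and Olfml3 -0.25. At 28 dpi they were P2ry13 -0.39, Cx3cr1 -0.43, Csf1r -0.56, Siglech -0.26, Olfml3 -0.42 and Sall1 -0.36, and at 42 dpi P2ry12 -0.41, P2ry13 -0.32, Cx3cr1 -0.46, Csf1r -0.38, Siglech -0.12, Olfml3 -0.47 and Sall1 -0.42. Sall1 at 7 dpi was -0.026. Tmem119 at 28 dpi (-0.027) was 0.0046 with median centring, 0.055 with ribosomal RNA as a covariate and 0.051 with the exon length correction. With a pseudocount of 1 the difference in the ratio to Csf1r was -0.020 for Olfml3 at 4 dpi and -0.0099 for P2ry13 at 42 dpi. Values near 0 also changed sign when 1 animal was left out. The log2 fold change then ranged from -0.0011 to 0.14 for P2ry12 and -0.031 to 0.11 for Sall1 at 7 dpi, from -0.12 to 0.061 for Tmem119 at 28 dpi, and from -0.18 to 0.0028 for Gpr34 and -0.00054 to 0.094 for Olfml3 at 42 dpi. The ratio to Csf1r ranged from -0.034 to 0.083 for Olfml3 at 4 dpi, from -0.045 to 0.073 for Cx3cr1 and -0.12 to 0.028 for Olfml3 at 7 dpi, from -0.091 to 0.037 for P2ry13, -0.084 to 0.017 for Tmem119 and -0.040 to 0.076 for Cx3cr1 at 14 dpi, and from -0.10 to 0.0065 for P2ry12 and -0.030 to 0.059 for P2ry13 at 42 dpi.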
